A study of Homo sapiens with 9 samples.

Results

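The integrated stress response regulators described here are 10 genes, ATF4, ATF5, DDIT3, TRIB3, CHAC1, CEBPB, CEBPG, PPP1R15A, NUPR1 and STC2, found by their Ensembl identifiers among the 58395 genes of the deposited RNA-seq tables. They were measured in HCT116, an established human colon carcinoma cell line, in 9 libraries that form 3 groups of 3. Every library came from cells that carried a short hairpin against STBD1 (shSTBD1), a glycogen-binding protein. On top of the hairpin, cells carried either the empty vector (plvx neo), a wild-type STBD1 construct (STBD1 WT) or an STBD1 construct with the W203C substitution (STBD1 W203C). The constructs were put in with lentivirus and the cells were selected with drugs, so each group is 1 stable line and the construct cannot be told apart from other differences between lines. The study's methods call the replicates biological, and neither they nor the labels say whether these were separate cultures, so the p-values measure the spread between these libraries.

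The integrated stress response starts when kinases that sense unfolded protein, amino acid shortage, double-stranded RNA or haem shortage phosphorylate the translation factor eIF2. General translation then slows while the mRNA of the transcription factor ATF4 is translated more, so ATF4 activity can change without a change in ATF4 mRNA. ATF4, with partners such as CEBPG and CEBPB, switches on genes for amino acid synthesis, amino acid transport and tRNA charging, while PPP1R15A brings a phosphatase to eIF2 and closes the loop.

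The labels of the constructs conflict with another record of the same libraries. In a second listing made by the authors, of per-replicate TPM (a level corrected for transcript length and for the library total), the columns named W203C hold the values of the libraries labelled STBD1 WT, and the reverse. All 197 genes compared matched that exchange in all 3 replicates within 0.006 TPM, none matched the labels for these 2 constructs, and all 197 matched for plvx neo. Groups below follow the labels, and STBD1 WT and STBD1 W203C always mean the libraries so labelled. If they were exchanged, every direction between the constructs would turn, each construct's values against plvx neo would pass to the other, and a gene lower in both constructs than in plvx neo would still be so. STBD1 itself was at 3.27 ± 0.547 TPM in plvx neo, 10.83 ± 0.0693 in the libraries labelled STBD1 WT and 9.15 ± 1.04 in those labelled STBD1 W203C (SD, n = 3), so it was higher with both constructs. The readthrough gene FAM47E-STBD1, which shares sequence with STBD1, stood at 1.58 ± 0.747, 43.74 ± 2.32 and 36.91 ± 1.92 TPM in that order.

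Depth ran from 16881429 to 23278126 expected counts per library. Of 9 colon epithelial markers, 6 reached 1 TPM in every group, with CDX1 at 0 and VIL1 under 1 TPM. KRT20 stayed under 1 TPM in all libraries of plvx neo and of STBD1 W203C, and in some but not all of STBD1 WT, by label. The summed level of the 9 ran from 3799 to 3898 TPM in plvx neo, from 3395 to 3528 in the libraries labelled STBD1 WT and from 3177 to 3438 in those labelled STBD1 W203C. Of 7 markers of other cell types, 2 reached 1 TPM, CD68 and COL1A1. The summed level of the 7 ran from 16.32 to 19.04 TPM in plvx neo, from 21.79 to 25.66 in STBD1 WT and from 15.29 to 20.04 in STBD1 W203C, so STBD1 WT stood above the others without overlap. The part of either marker list in the differences below was not tested. In bulk RNA, fewer cells of a kind and less RNA per cell cannot be told apart.

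On the TPM scale the regulators covered a wide range of levels. In plvx neo, ATF4 was by far the highest at 420 TPM. PPP1R15A followed at 82.0 TPM. CEBPB at 50.6, STC2 at 41.9, TRIB3 at 39.5 and ATF5 at 33.9 TPM formed a middle group, in which STC2, from 32.33 to 49.14 TPM, overlapped CEBPB and took in the whole ranges of TRIB3 and ATF5. CEBPG at 19.7 and DDIT3 at 17.1 TPM overlapped each other, CHAC1 stood at 9.76 TPM, and NUPR1 was close to 0 at 0.133 TPM.

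**Figure D1:**
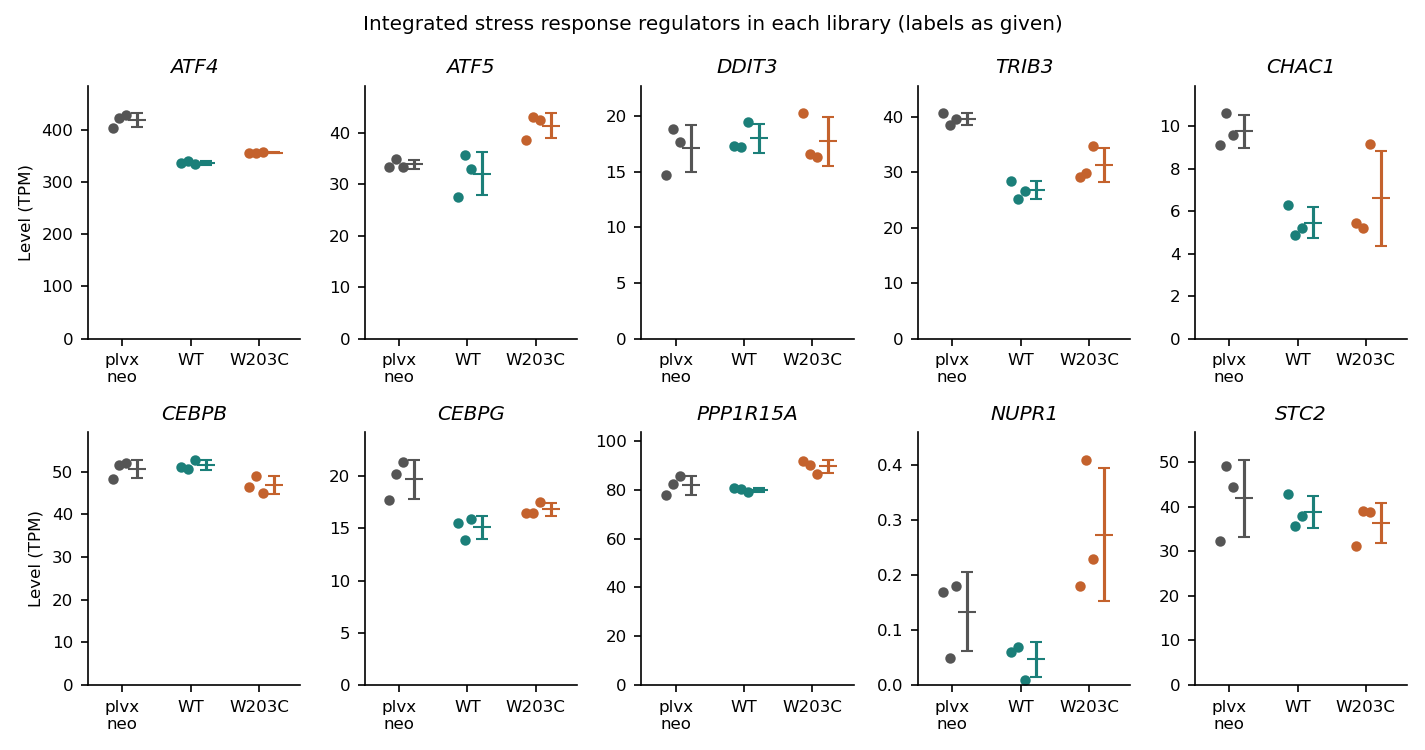
Level in TPM (vertical axis, from 0, with its own scale in each panel) of each of the 10 regulators in the 3 groups as labelled. Points are libraries, in replicate order from left to right, and bars beside them are the mean and SD (n = 3). ATF4, TRIB3 and CEBPG are higher in all 3 plvx neo libraries than in any other library.

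ATF4 (chr22:39519695-39522683, plus strand, GRCh38), the central transcription factor of the response, was measured at 404.03, 424.44 and 430.35 TPM in the plvx neo libraries. It was at 336.72, 341.45 and 334.81 TPM in the libraries labelled STBD1 WT and at 355.85, 357.41 and 358.81 TPM in those labelled STBD1 W203C. No construct library reached the lowest plvx neo library, and the construct groups themselves lay close to each other without overlapping. By edgeR's quasi-likelihood test with Benjamini-Hochberg adjustment over all genes tested, used for every adjusted p here, ATF4 fell by 18.6% in the libraries labelled STBD1 WT against plvx neo (log2 fold change -0.30 ± 0.0349 SE, adjusted p = 2.60e-06). It fell by 16.7% in those labelled STBD1 W203C against plvx neo (-0.26 ± 0.0336, adjusted p = 1.47e-05). Between the constructs the log2 difference was 0.04 ± 0.0354, with a 95% interval from -0.03 to 0.11. ATF4 pseudogenes, which could share its reads, were at 0.13 TPM or less in every library.

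ATF5 (chr19:49928702-49933935, plus strand), a relative of ATF4 whose mRNA is likewise translated more under stress, gave 33.41, 34.98 and 33.44 TPM in plvx neo. It gave 27.52, 35.78 and 33.02 TPM in the libraries labelled STBD1 WT and 38.65, 43.13 and 42.56 TPM in those labelled STBD1 W203C. The last group was above all other libraries, while the other groups overlapped. ATF5 rose by 35.4% in the libraries labelled STBD1 W203C against those labelled STBD1 WT (log2 0.44 ± 0.0605, adjusted p = 1.48e-05). Against plvx neo it fell in the first construct (-0.21 ± 0.0614, adjusted p = 0.0143) and rose in the second (0.22 ± 0.0582, adjusted p = 0.0219). Its effective length, the transcript length that the counting assigned to it, averaged 1380 ± 62.6 bases in plvx neo, 1255 ± 106 in the libraries labelled STBD1 WT and 1350 ± 20.7 in those labelled STBD1 W203C. With that length in the model the construct difference was 0.33 (adjusted p = 0.0671), the fall shrank to -0.08 (adjusted p = 0.667) and the rise was 0.25 (adjusted p = 0.165), so none passed, while limma on log2(TPM + 1) gave a construct difference of 0.36 (adjusted p = 0.0444). The changes against plvx neo also lost their calls when single libraries were left out, plvx neo replicate 1 or STBD1 WT replicate 1 for the fall and any of plvx neo replicates 2 and 3 and STBD1 W203C replicates 2 and 3 for the rise. ATF5 shares 565 exon bases with NUP62 on the opposite strand, at up to 62.1 TPM, and whether the counting used strand is not stated, so its level is uncertain.

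DDIT3 (chr12:57516588-57521737, minus strand), which encodes CHOP, a transcription factor linked to cell death in prolonged stress, was at 14.73, 18.88 and 17.68 TPM in plvx neo. It was at 17.30, 17.21 and 19.46 TPM in the libraries labelled STBD1 WT and at 20.27, 16.61 and 16.30 TPM in those labelled STBD1 W203C. The groups overlapped throughout. The log2 differences were 0.07 for STBD1 WT against plvx neo (95% interval -0.15 to 0.28), -0.05 for STBD1 W203C against STBD1 WT (-0.28 to 0.17) and 0.01 for STBD1 W203C against plvx neo (-0.22 to 0.24), all by label. DDIT3 shares 355 exon bases with MARS1 on the opposite strand, at up to 146.77 TPM, so its level carries the same uncertainty as that of ATF5.

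CEBPG (chr19:33373685-33382686, plus strand), a dimer partner of ATF4, was at 17.68, 20.18 and 21.33 TPM in plvx neo. It was at 15.54, 13.88 and 15.95 TPM in the libraries labelled STBD1 WT and at 16.50, 16.47 and 17.52 TPM in those labelled STBD1 W203C. Every plvx neo library was above every construct library, by a small margin for plvx neo replicate 1. Against plvx neo, CEBPG fell to 0.770 of its level in the libraries labelled STBD1 WT (log2 -0.38 ± 0.0581, adjusted p = 6.22e-05) and to 0.836 in those labelled STBD1 W203C (-0.26 ± 0.0559, adjusted p = 0.00534). Without plvx neo replicate 3 the second change had an adjusted p of 0.0730. It also lost its call with effective lengths in the model (adjusted p = 0.121) and by limma on log2(TPM + 1) (0.293). Between the constructs the log2 difference was 0.12 ± 0.0562 (adjusted p = 0.106), although the TPM ranges did not overlap.

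CEBPB (chr20:50190830-50192668, plus strand), another dimer partner, showed another order. It was at 48.30, 51.54 and 52.05 TPM in plvx neo, at 51.17, 50.67 and 52.88 TPM in the libraries labelled STBD1 WT and at 46.55, 49.06 and 45.02 TPM in those labelled STBD1 W203C. The last group was below all libraries labelled STBD1 WT and overlapped plvx neo. CEBPB fell by 11.3% in the libraries labelled STBD1 W203C against those labelled STBD1 WT (log2 -0.17 ± 0.0443, adjusted p = 0.00554). Against plvx neo the same libraries gave -0.15 ± 0.0465 (adjusted p = 0.0577) and those labelled STBD1 WT gave 0.03 ± 0.0430 (adjusted p = 0.693). The first of these passed under 2 of 9 alternatives and in 0 of 6 fits with a library left out. The 2 were all 9 libraries in 1 edgeR fit (adjusted p = 0.0417) and the replicate number in the edgeR model (0.0491). It did not pass by DESeq2 (adjusted p = 0.139) or with effective lengths in the edgeR model (0.267).

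Of the feedback genes, TRIB3 (chr20:362835-397559, plus strand), a pseudokinase that is induced by ATF4 and restrains it, was at 40.64, 38.49 and 39.50 TPM in plvx neo. It was at 28.37, 25.16 and 26.60 TPM in the libraries labelled STBD1 WT and at 29.05, 29.90 and 34.78 TPM in those labelled STBD1 W203C. The 3 groups did not overlap, and the third replicate of the last group stood nearest to plvx neo. TRIB3 fell by 33.2% in the libraries labelled STBD1 WT (log2 -0.58 ± 0.0524, adjusted p = 7.41e-08) and by 24.2% in those labelled STBD1 W203C (-0.40 ± 0.0639, adjusted p = 0.000250) against plvx neo. The second fall lost its call with effective lengths in the model (adjusted p = 0.0638) and by limma on log2(TPM + 1) (0.0883). The difference between the constructs, 0.19 ± 0.0653 (adjusted p = 0.0365), lost its call without STBD1 W203C replicate 3, STBD1 WT replicate 2 or STBD1 WT replicate 3, with a lowest value of 0.09. It also lost it by DESeq2 (adjusted p = 0.0741) and by edgeR with library size alone (0.0610). With effective lengths (0.180) and by limma on log2(TPM + 1) (0.127) it failed too.

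PPP1R15A (chr19:48872212-48876059, plus strand), also called GADD34, directs the phosphatase that reverses eIF2 phosphorylation. It was at 77.90, 82.35 and 85.63 TPM in plvx neo, at 80.73, 80.44 and 79.26 TPM in the libraries labelled STBD1 WT and at 92.09, 90.30 and 86.52 TPM in those labelled STBD1 W203C. The last group was above all other libraries, whereas the other groups overlapped. PPP1R15A rose by 9.89% in the libraries labelled STBD1 W203C against those labelled STBD1 WT (log2 0.14 ± 0.0381, adjusted p = 0.0101), and without STBD1 W203C replicate 1 its adjusted p was 0.0633. Against plvx neo the log2 values were -0.05 ± 0.0382 (adjusted p = 0.421) for STBD1 WT and 0.09 ± 0.0395 (adjusted p = 0.235) for STBD1 W203C.

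CHAC1 (chr15:40952962-40956512, plus strand), an effector that degrades glutathione, was at 9.10, 10.61 and 9.57 TPM in plvx neo. It was at 6.29, 4.88 and 5.18 TPM in the libraries labelled STBD1 WT and at 5.44, 5.18 and 9.17 TPM in those labelled STBD1 W203C. By TPM, STBD1 W203C replicate 3 lay within the plvx neo range and far from its own group, and the other construct libraries were all below plvx neo. In log2 counts scaled to the library total and edgeR's TMM factor, and centred on the gene's mean, that replicate was at 0.23. The plvx neo libraries were above it on this scale, at 0.46 to 0.60. CHAC1 fell by 44.7% in the libraries labelled STBD1 WT (log2 -0.85 ± 0.117, adjusted p = 1.71e-05) and by 37.8% in those labelled STBD1 W203C (-0.68 ± 0.137, adjusted p = 0.00262) against plvx neo, the greatest decreases among the regulators. The second value ran from -0.92 without STBD1 W203C replicate 3 to -0.56 with another library left out. It lost its call with effective lengths in the model (-0.61, adjusted p = 0.252) and by limma on log2(TPM + 1) (-0.54, adjusted p = 0.236). Between the constructs the 95% interval of the log2 difference ran from -0.16 to 0.52, and the value was -0.07 without STBD1 W203C replicate 3.

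STC2 (chr5:173314723-173328447, minus strand), a secreted glycoprotein induced in the stress response, was at 32.33, 49.14 and 44.33 TPM in plvx neo. It was at 42.76, 35.66 and 37.88 TPM in the libraries labelled STBD1 WT and at 31.29, 39.03 and 38.89 TPM in those labelled STBD1 W203C. All groups overlapped, and plvx neo replicate 1 was the lowest of its group. The log2 values were -0.13 ± 0.0754 for STBD1 WT against plvx neo (adjusted p = 0.228), -0.08 ± 0.0651 between the constructs (adjusted p = 0.416) and -0.21 ± 0.0771 for STBD1 W203C against plvx neo (adjusted p = 0.122). These depended on single libraries. Without plvx neo replicate 1 the edgeR values were -0.24 for STBD1 WT (adjusted p = 0.00372) and -0.32 for STBD1 W203C (adjusted p = 0.00413). Without STBD1 W203C replicate 3 they were -0.30 for STBD1 W203C against plvx neo (adjusted p = 0.0305) and -0.17 between the constructs (adjusted p = 0.0454). With all libraries, STBD1 W203C against plvx neo also passed under 2 of 9 alternatives. These were edgeR without the filter (adjusted p = 0.00199) and with the replicate number in the model (0.00955). It did not pass by DESeq2 (adjusted p = 0.583) or by limma on log2(TPM + 1) (0.626).

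NUPR1 (chr16:28532708-28539008, minus strand), a small chromatin-associated stress protein, was barely detected. Its expected counts were 5, 5 and 3 in plvx neo, 5, 8 and 1 in the libraries labelled STBD1 WT and 7, 4 and 4 in those labelled STBD1 W203C, and it failed the filter on low counts. At this depth no difference in NUPR1 could be shown.

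Counted together, 4 of the 9 tested regulators, ATF4, TRIB3, CHAC1 and CEBPG, were lower than plvx neo in both constructs, in comparisons that share the plvx neo libraries. In the libraries labelled STBD1 WT against plvx neo, 5 of 9 passed the test and all 5 were lower, where 27.8% of 15289 genes passed, 13.9% higher and 13.9% lower. For STBD1 W203C by label against plvx neo, 5 of 9 passed, ATF5 higher and 4 lower, where 5.70% of 15081 genes passed, 3.03% higher and 2.67% lower. Between the constructs 4 of 9 passed, with ATF5, TRIB3 and PPP1R15A above and CEBPB below the STBD1 WT level in those labelled STBD1 W203C, where 27.9% of 15052 genes passed, 14.5% higher and 13.4% lower. Without plvx neo replicate 3, 3 of 9 passed in the second comparison. With effective lengths in the model, ATF4 alone of the regulators passed there, 4 of 9 passed in the first comparison and none between the constructs, with 4 there at an unadjusted p below 0.05 and 3 calls by DESeq2 without the lengths. Of all genes tested, 119 of 15081, 1907 of 15289 and 1582 of 15052 passed with the lengths in these comparisons, in that order. The median log2 fold change of the tested regulators was -0.21 in each comparison with plvx neo and 0.12 between the constructs, beside medians over all genes between -0.01 and 0.01. With effective lengths the medians were -0.11 for STBD1 WT and -0.24 for STBD1 W203C against plvx neo and 0.12 between the constructs, and for STBD1 WT the value without them is that of ATF5, the member at the middle of the list. The TPM ranges of the groups did not overlap for 4, 5 and 6 of the 9 tested regulators respectively, against 31.3%, 20.2% and 33.1% of all genes tested, in the order STBD1 WT and STBD1 W203C against plvx neo and between the constructs. An exact two-sided permutation test on the TPM of 3 against 3 libraries cannot go below p = 0.10, the value reached by each of these.

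**Figure D2:**
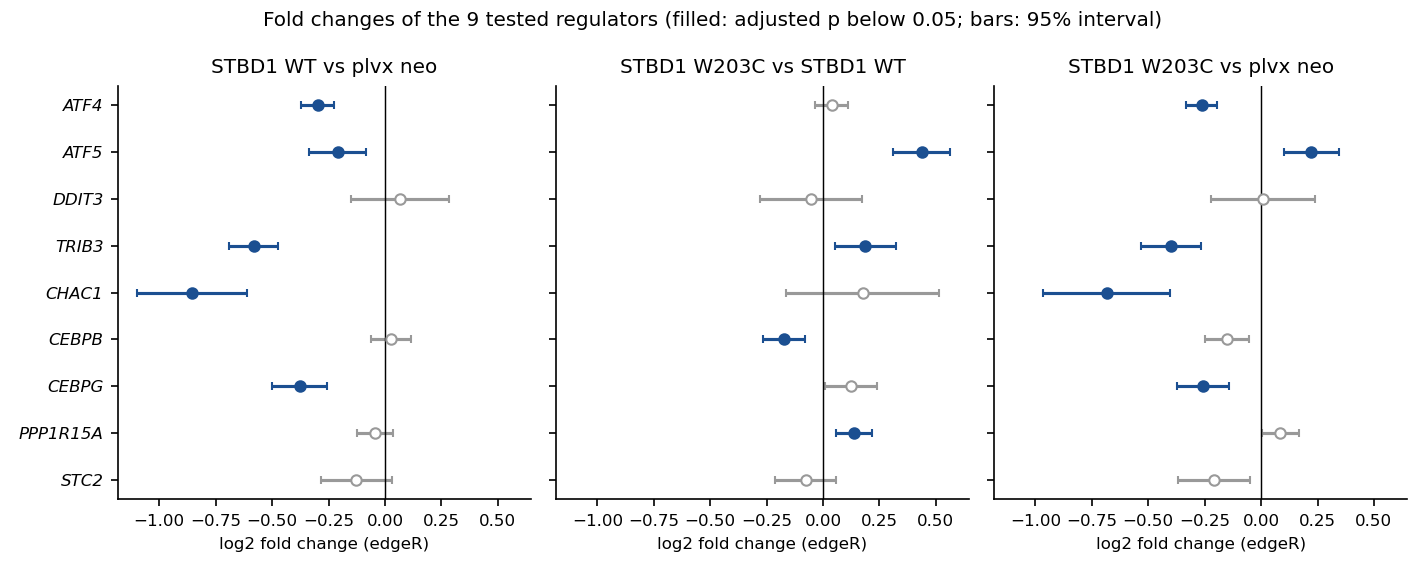
Log2 fold change (horizontal axis, edgeR) of the 9 tested regulators in the 3 comparisons, named as labelled. Filled points passed an adjusted p of 0.05 and bars are 95% intervals. ATF4, TRIB3, CHAC1 and CEBPG lie left of 0 in both comparisons with plvx neo, and ATF5 changes side between them.

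The regulators that fell were read against ASNS, asparagine synthetase, a reference target of ATF4. ASNS was at 194.73, 202.37 and 198.26 TPM in plvx neo, at 77.08, 77.99 and 74.31 TPM in the libraries labelled STBD1 WT and at 129.22, 123.63 and 153.34 TPM in those labelled STBD1 W203C. The 3 groups were wide apart, with STBD1 W203C in the middle. ASNS fell by 1.45 ± 0.0389 on the log2 scale in STBD1 WT (adjusted p = 1.42e-15) and by 0.61 ± 0.0571 in STBD1 W203C (adjusted p = 1.31e-07) against plvx neo, and the constructs differed by 0.85 ± 0.0630 (adjusted p = 4.33e-09). By TPM, STBD1 W203C replicate 3 was the highest of its group for ASNS and for 4 of the 10 regulators. In counts scaled to the library total and TMM factor it was also the highest of its group for ATF5 and STC2.

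**Figure D3:**
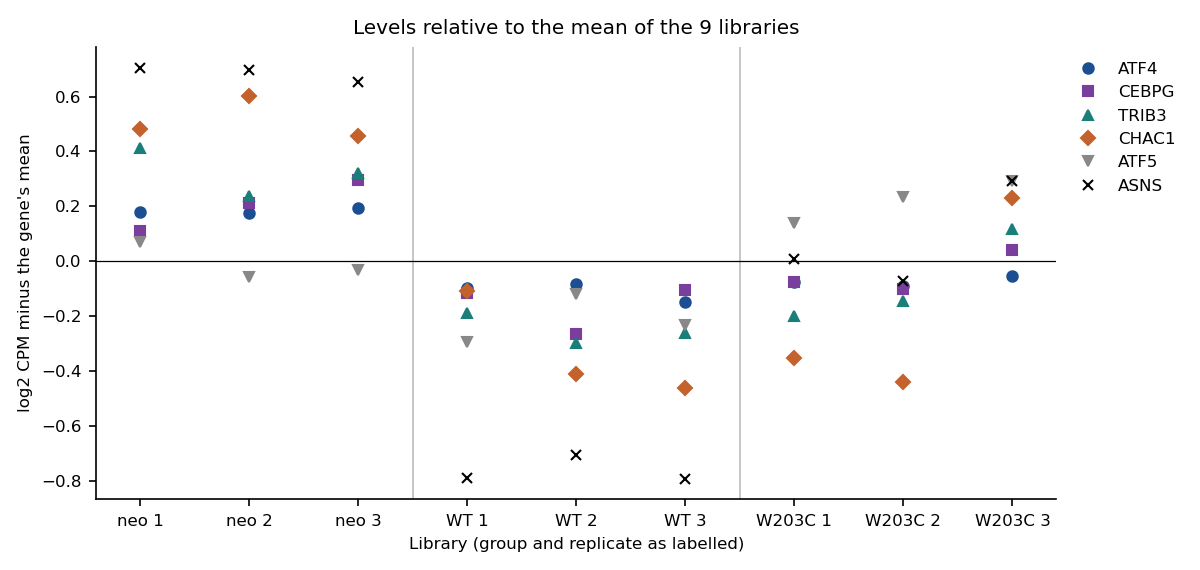
Log2 CPM (counts scaled to the library total and TMM factor) minus the gene's own mean over the 9 libraries (vertical axis) for 5 regulators and ASNS in each library as labelled (horizontal axis). ATF4, TRIB3, CHAC1 and CEBPG are above 0 in all plvx neo libraries, ATF5 is highest in the libraries labelled STBD1 W203C, and STBD1 W203C replicate 3 is the highest of its group for every gene shown.

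Likeness to other genes was taken as the root mean square difference of the centred log2 CPM over the 9 libraries, for the regulators whose group means spanned at least 0.5, among 11309 genes. For TRIB3 the most alike were SARS1 (0.0582) and CARS1 (0.0584), which charge tRNAs with serine and cysteine. For CHAC1 they were PCK2 (0.169), the mitochondrial phosphoenolpyruvate carboxykinase, and DUSP6 (0.184), a MAP kinase phosphatase. CHAC1 also had lower counts, between 103 and 260 per library, whose part in these larger differences was not tested.

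ATF4 dimers with C/EBP proteins bind a composite element that was searched here as TGATGNAA on both strands, the reverse complement being TTNCATCA, in windows from 250 bases before to 50 bases after each RefSeq start (GRCh38.p14). The element was found in 4.46% of 27305 genes with a window and in 2 of the 9 regulators that had one, CHAC1 and CEBPG. The matches of these regulators are shown with those of ASNS, of CARS1 as a gene like TRIB3, and of ATF3, chosen after its values were seen because it holds a match and rose. No match was found for TRIB3 itself or for SARS1, the gene most like it. Capitals mark the match, and each stretch runs 5′ to 3′ on the strand of its gene.
CHAC1, chr15:40953251-40953280, plus strand: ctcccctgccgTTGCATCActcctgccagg
CEBPG, chr19:33374060-33374089, plus strand: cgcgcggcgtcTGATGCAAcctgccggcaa
ASNS, chr7:97872458-97872487, minus strand: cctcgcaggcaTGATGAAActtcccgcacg
CARS1, chr11:3057407-3057436, minus strand: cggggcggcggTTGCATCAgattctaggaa
ATF3, chr1:212565205-212565234, plus strand: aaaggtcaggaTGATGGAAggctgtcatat

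The match began 209 bases before the start in CHAC1, 42 before the second listed start in CEBPG, 68 in ASNS, 2 in CARS1 and 191 in ATF3. By GENCODE the CHAC1 match lies in the first exon of a longer CHAC1 transcript and the CEBPG match in the first intron of longer CEBPG transcripts. Among the other lists it was found in 7 of 11 tRNA charging genes with a window, 4 of 8 amino acid transporters and 1 of 9 amino acid enzymes, against 1 of 19 genes of eIF2 signalling, 2 of 10 paralogues and partners, 1 of 10 stress outputs and 1 of 18 chaperone genes. A match is a stretch of letters and not evidence of binding, and a window without one says nothing of elements elsewhere. ATF3, an ATF4 relative induced in many stresses, was higher than plvx neo in the libraries labelled STBD1 WT (log2 0.53 ± 0.0493, adjusted p = 1.07e-07) and in those labelled STBD1 W203C (0.28 ± 0.0486, adjusted p = 0.000743), the opposite direction to ATF4. JDP2, the other of the 2 paralogues and partners with a match, went the same way as ATF4. Against plvx neo it was at -0.58 ± 0.108 in STBD1 WT (adjusted p = 0.000435) and at -0.39 ± 0.111 in STBD1 W203C (adjusted p = 0.0400).

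The other genes of the pathway were counted by list. Of all genes tested, 13.9% fell in STBD1 WT against plvx neo and 2.67% fell in STBD1 W203C against plvx neo. Between the constructs 14.5% were higher and 13.4% lower in STBD1 W203C. With effective lengths in the model fewer of all genes passed, counted in either direction. These were 1907 of 15289 in STBD1 WT and 119 of 15081 in STBD1 W203C against plvx neo. Between the constructs they were 1582 of 15052. The list counts with effective lengths below stand beside these numbers and not beside the shares above. Among 13 tested amino acid enzymes, 11 fell and none rose in the libraries labelled STBD1 WT against plvx neo, with a list median of -0.32. In the libraries labelled STBD1 W203C against plvx neo 7 fell and none rose, and between the constructs 10 were higher and none lower in the latter. Beside ASNS, PSAT1 of serine synthesis showed the widest difference between the constructs, 0.72 ± 0.0691 (adjusted p = 1.87e-07), and it fell by 1.31 on the log2 scale in STBD1 WT against plvx neo. With effective lengths in the model 10 enzymes fell in the first comparison, 5 in the second and 6 were higher between the constructs, and the list medians were -0.40, -0.14 and 0.24, against -0.32, -0.19 and 0.19 without them.

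The tRNA charging list held 12 aminoacyl-tRNA synthetases and the tRNA exporter XPOT. All 13 fell in the libraries labelled STBD1 WT against plvx neo, by a median of -0.52 on the log2 scale, 10 fell in those labelled STBD1 W203C, by a list median of -0.19, and 12 were higher in the latter than in the former. Of all genes tested, 13.9% fell, 2.67% fell and 14.5% were higher in these comparisons. The same shares stand beside the transporters below. WARS1, for tryptophan, was 0.44 ± 0.0526 higher (adjusted p = 3.26e-06) and YARS1, for tyrosine, 0.36 ± 0.0433 higher (adjusted p = 3.58e-06) in STBD1 W203C than in STBD1 WT. Of 9 tested transporters, 7 fell and none rose in STBD1 WT against plvx neo, 2 fell and 1 rose in STBD1 W203C, and 5 were higher and none lower in STBD1 W203C than in STBD1 WT. SLC7A5 and SLC3A2, the light and heavy chains of one amino acid exchanger, were 0.44 ± 0.0453 (adjusted p = 3.53e-07) and 0.44 ± 0.0515 (adjusted p = 2.02e-06) higher in that last comparison. With effective lengths in the model 13 of the charging list and 6 transporters fell in STBD1 WT, 5 and none in STBD1 W203C, and 8 and 4 were higher between the constructs. Of all genes tested, 1907 of 15289, 119 of 15081 and 1582 of 15052 then passed in either direction. The medians of the charging list were then -0.48, -0.23 and 0.22, against -0.52, -0.19 and 0.29 without the lengths, and those of the transporters -0.53, -0.12 and 0.24, against -0.48, -0.17 and 0.20.

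The list of stress outputs went the other way. Of 12 tested, 10 rose and 1 fell in the libraries labelled STBD1 WT against plvx neo, 7 rose and 1 fell in those labelled STBD1 W203C, and none was higher and 7 were lower in the latter than in the former. Among all genes tested, 13.9% rose, 3.03% rose and 13.4% were lower in these comparisons. BBC3, which encodes the cell death protein PUMA and is also a target of p53, was 0.77 ± 0.0726 above plvx neo in STBD1 WT (adjusted p = 1.47e-07) and 0.32 ± 0.0788 above it in STBD1 W203C (adjusted p = 0.0135). With effective lengths in the model 7 rose in STBD1 WT, 2 rose in STBD1 W203C and 2 were lower between the constructs, while the list medians were 0.34, 0.24 and -0.14, against 0.33, 0.23 and -0.19 without them. ERO1A, an oxidase of the endoplasmic reticulum, was 0.29 ± 0.0444 lower in STBD1 W203C than in STBD1 WT (adjusted p = 4.91e-05). Several genes of this list, GADD45A and TNFRSF10B among them, are known to answer to p53 or other stress pathways as well.

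Upstream, of the 22 genes of eIF2 signalling, 7 fell and 1 rose in the libraries labelled STBD1 WT against plvx neo, and 1 fell and none rose in those labelled STBD1 W203C. Taken in either direction, these counts are near the shares of all genes called, 27.8% and 5.70%, and are no result about the list. By direction, the 7 of 22 that fell in the first comparison stood beside 13.9% of all genes that fell there. With effective lengths in the model 2 fell and none rose in the first, and none passed in the second, against 6 higher between the constructs. Between the constructs 9 of the 22 were higher and none lower in STBD1 W203C, where 14.5% of all genes were higher and 13.4% lower. The widest differences were those of EIF2B1 (0.25 ± 0.0600, adjusted p = 0.00309) and EIF2B4 (0.23 ± 0.0527, adjusted p = 0.00198), subunits of the exchange factor that recharges eIF2. Of 12 tested paralogues and partners of the regulators, 2 rose and 2 fell in STBD1 WT against plvx neo, 2 rose and 1 fell in STBD1 W203C, and 3 were higher and 3 lower between the constructs, where 27.8%, 5.70% and 27.9% of all genes were called. The first count is near its share, and with effective lengths 3, 0 and 2 of the 12 passed. The list was broad and held genes, such as DDIT4, that are neither paralogue nor partner. DDIT4, an inhibitor of mTORC1, was 0.31 ± 0.0701 lower (adjusted p = 0.00190) and CEBPD, a C/EBP factor, 0.29 ± 0.0909 higher (adjusted p = 0.0224) in STBD1 W203C than in STBD1 WT. The measurements are of mRNA, so neither eIF2 phosphorylation nor ATF4 protein was observed.

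The chaperone genes of the ATF6 and XBP1 arms, a branch of the unfolded protein response apart from eIF2, were counted in the same way. Of 18, 10 fell and none rose in the libraries labelled STBD1 WT against plvx neo, none passed in those labelled STBD1 W203C by edgeR's test or by DESeq2, with 5 at an unadjusted p below 0.05 by edgeR, and 14 were higher and 1 lower in the latter than in the former. By edgeR's test 13.9% of all genes fell in the first comparison, 5.70% passed in the second and 14.5% were higher in the third. The absence of calls in the second is near its share and is no result about the list. DNAJB11, an HSP40 cochaperone, was 0.41 ± 0.0416 higher (adjusted p = 3.39e-07) and SDF2L1 0.33 ± 0.0580 higher (adjusted p = 0.000227) in STBD1 W203C than in STBD1 WT. Against plvx neo, DNAJB11 was at -0.33 ± 0.0454 in STBD1 WT (adjusted p = 1.59e-05) and at 0.07 ± 0.0434 in STBD1 W203C (adjusted p = 0.415). With effective lengths in the model 5 of the 18 fell in STBD1 WT and 8 were higher between the constructs, and the list medians were -0.11 and 0.17, against -0.13 and 0.17 without them.

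**Figure D4:**
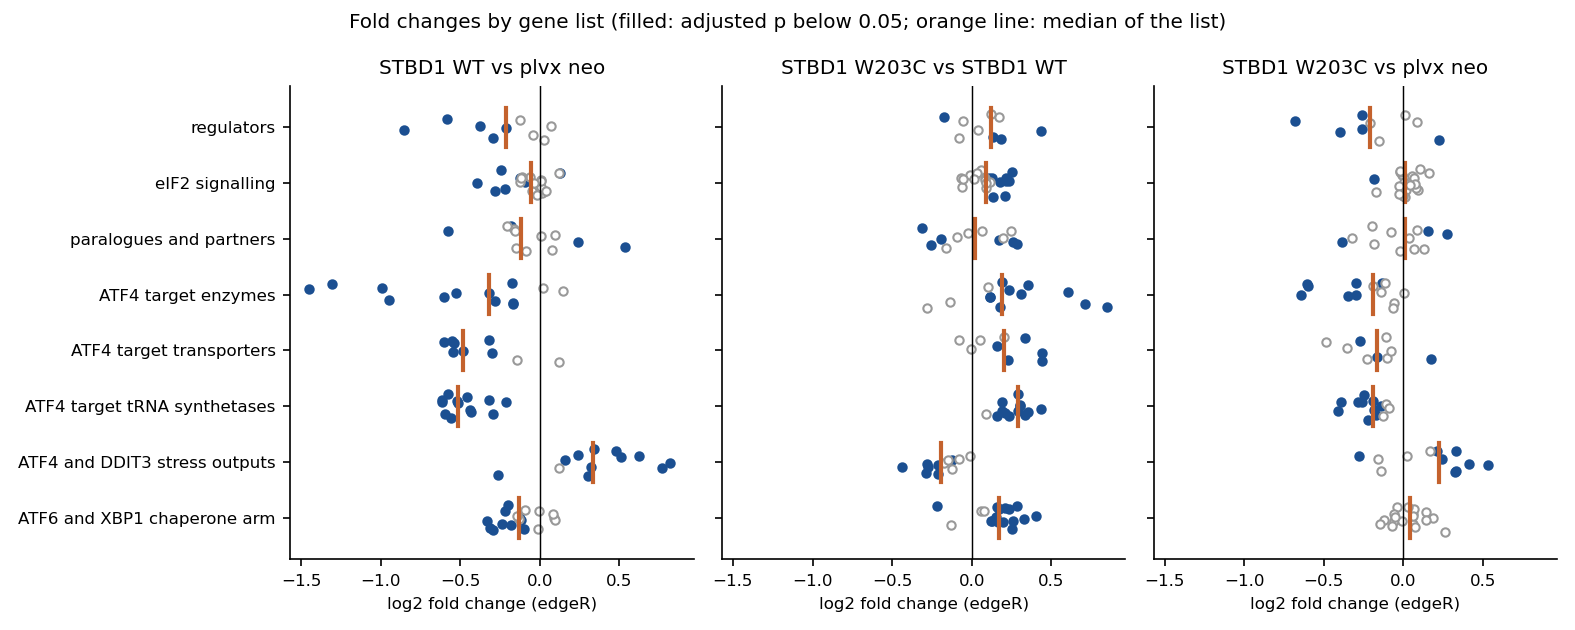
Log2 fold change (horizontal axis, edgeR) of each tested gene of the regulators and of 7 pathway lists in the 3 comparisons as labelled. Filled points passed an adjusted p of 0.05, open points did not, and orange lines are list medians. The enzymes, transporters and tRNA synthetases lie mostly left of 0 in the libraries labelled STBD1 WT, and the stress outputs lie mostly right of it.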

How the data were processed

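RNA of 9 libraries was sequenced on an Illumina platform. Per the labels and the study's methods, the authors aligned reads to hg38 with STAR 2.7.1a and estimated abundance with RSEM 1.3.1. The deposited tables give the expected count, the effective length and the TPM of each gene. The methods name GenomicAlignments for read counts, which were not used here. Whether counting used strand is not given in the sources used here. Symbols were found for 57754 of 58395 genes, and 0 columns were left unassigned. Groups follow the sample titles.

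Expected counts were rounded, genes with low counts were removed with filterByExpr, and pairs of groups were fitted with TMM factors and the quasi-likelihood test of edgeR 4.0.16 in R 4.3.3, with Benjamini-Hochberg adjustment and a threshold of 0.05. TPM were compared with an exact permutation test. Alternatives used DESeq2 1.42.0, limma 3.58.1 on log2 TPM with a pseudocount of 1 or 0.1, other scalings, no filter, effective-length offsets, a 1.5-fold floor and each library left out. The scripts were tested on simulated data. Replicate numbers did not pair the samples, because deviations of same-numbered libraries correlated by -0.0125 to 0.0677.

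The regulators and pathway lists were chosen with earlier results of these data known. Named beside them were the 2 genes of each list with the widest difference between the constructs and at least 5 CPM, the 2 genes most alike each regulator whose group means spanned 0.5, ASNS, STBD1 and FAM47E-STBD1. ATF3, JDP2, GADD45A, TNFRSF10B and XPOT were named after their values were seen. Gene positions are from GENCODE on GRCh38 and promoter windows from RefSeq.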

Additional observations from a re-analysis of the deposited data

Results flagged for a closer look

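For 4 regulators the effect against plvx neo differed between the constructs by edgeR's test, taken as STBD1 W203C minus STBD1 WT by label. The log2 difference was 0.44 for ATF5, 0.19 for TRIB3, -0.17 for CEBPB and 0.14 for PPP1R15A. With effective lengths in the model none of the 4 differences passed. ATF5 was the 1 regulator among them that passed in opposite directions against plvx neo, at -0.21 and 0.22. These values would change sign if the construct labels were exchanged.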

How the results depend on the processing

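No result changed direction past the threshold under any alternative run. Apart from the 1.5-fold floor, single regulators kept their side of the threshold in 214 of 243 results under the alternatives and in 147 of 162 with a library left out, 25 and 11 lost it, and 4 and 4 gained it, all of the gains for STC2 or CEBPB. These totals include results not called at the start, which had no call to lose. In STBD1 W203C against plvx neo, ATF5, TRIB3, CHAC1 and CEBPG each passed in 6 of 9 alternatives. Each failed with effective lengths and in both limma-trend fits. ATF4 passed against plvx neo under those 9 alternatives and all 6 leave-outs for both constructs, but at 1.23-fold and 1.20-fold it did not reach the floor. The effective-length offset, limma-trend with a pseudocount of 1, limma-trend with a pseudocount of 0.1 and the 1.5-fold floor moved the numbers of changed genes most. In that order they gave 1907, 1751, 1749 and 541 genes for STBD1 WT against plvx neo (4254 as reported), 1582, 1828, 1807 and 471 between the constructs (4202) and 119, 131, 115 and 104 for STBD1 W203C against plvx neo (859). The regulators called in that order became 4, 4, 4 and 1 (5 as reported), 0, 2, 2 and 0 (4) and 1, 1, 1 and 1 (5), and the cause was not tested. Calls between the constructs split into 2178 higher and 2024 lower as reported, 1257 and 571 on TPM and 49 and 422 above the floor, those of STBD1 WT into 466 and 75 above the floor, and those of STBD1 W203C against plvx neo into 457 and 402 as reported and 97 and 34 on TPM. DESeq2 gave 3170, 2982 and 621 genes in the order above.

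Leaving out single libraries gave 3317 to 3794 changed genes and 4 to 5 regulators for STBD1 WT against plvx neo, 3307 to 3618 and 3 to 4 between the constructs, and 459 to 818 and 3 to 6 for STBD1 W203C against plvx neo, where the counts were 459 without plvx neo replicate 3, 501 without STBD1 W203C replicate 1 and 543 without STBD1 W203C replicate 2. With the replicate block 4400, 3662 and 1003 genes and 5, 4 and 7 regulators passed, the last with STC2 (edgeR, adjusted p = 0.00955) and CEBPB (0.0491) added, although the replicate numbers do not pair the samples. The filter left NUPR1, with at most 8 counts in a library, untested.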
